A study of Mus musculus with 6 samples.

Results

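The cytosolic ribosome is built from ribosomal RNA and a fixed set of ribosomal proteins, each made from its own gene. The genes of the small subunit carry names that start with Rps, those of the large subunit start with Rpl, and Rplp0, Rplp1 and Rplp2 form the stalk that recruits elongation factors. Most of these transcripts begin with a run of pyrimidines (a terminal oligopyrimidine tract) through which mTOR complex 1 controls their translation, and growing cells devote a large part of their messenger RNA to them. A few members have a close relative (a paralog) whose protein can take the same place in the ribosome. LKB1, the kinase encoded by Stk11, restrains mTOR complex 1 through AMPK.

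Members were taken by name: 83 of the 31055 features of the matrix were cytosolic ribosomal protein genes, with 48 of the large subunit, 32 of the small subunit (Rpsa included) and 3 of the stalk. They were described in neoplastic cells sorted from mouse lung tumours, profiled by droplet-based sequencing of transcript 3-prime ends on the 10x Chromium platform. All 6 mice carried Lkb1XTR/XTR and Rosa26LSL-tdTomato, and lentiviral Cre, given into the trachea, started the tumours and turned on the tdTomato reporter. Cre also set the XTR gene trap, which truncates Lkb1 transcripts and carries GFP. FLPo-ERT2, where present, is a tamoxifen-activated recombinase that removes the trap. Tumours had developed for 20 weeks and the mice then had 2 weeks of vehicle or of tamoxifen in 4 mg doses. The 3 Restored mice carried FLPo-ERT2 and had tamoxifen. Of the 3 NonRestored mice, 1 lacked FLPo-ERT2 and had tamoxifen, 1 lacked it and had vehicle, and 1 carried it and had vehicle. Cells positive for CD45, CD31, F4/80 or Ter119 had been removed by sorting.

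The matrix held the cells of all 6 mice, and no file used here gives the mouse of each cell, so it was taken as 1 sample. Restored and NonRestored mice were not compared, no test was run, and every interval below is an exact 95% interval that covers counting error only. Groups of cells were instead set by their own transcripts. Cells of the ATII gate (alveolar type II, the surfactant-producing cell of the alveolus) had at least 500 UMIs (counted molecules) of Sftpc per 10000, under 2 of Hopx and under 50 of Krt8 and Krt18. Cells of the ATI gate (alveolar type I, the flat gas-exchange cell) had at least 15 of Hopx, and keratin-high cells had at least 50 of Krt8 and Krt18. GFP-positive cells had a GFP UMI and no Stk11 UMI, and Stk11-positive cells the reverse. These are gates on transcripts and do not name the mouse, so a difference between GFP-positive and Stk11-positive cells and a difference between mice cannot be told apart. Each level is a share of the UMIs of a group's cells, so a lower share of a gene and a higher share of others cannot be told apart.

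After removal of cells with under 500 genes or over 20% mitochondrial UMIs, 12183 of 16017 cells and 257163522 UMIs were kept, with 671 to 125731 UMIs in a cell and a median of 19348. The ATII gate held 6798 cells, the ATI gate 1127 and the keratin-high gate 1239, of which 140 were also in the ATI gate, and 3159 cells passed no gate. In the check of the gates, the 10 of 10 ATII markers were highest in the ATII gate, the 10 of 10 ATI markers in the ATI gate, and 7 of 8 keratin-high markers in the keratin-high gate. Fibroblast markers summed to 0.361 per 10000 in the ATII gate, 0.111 in the ATI gate and 0.107 in keratin-high cells, club markers to 1.44, 0.454 and 0.161, and ciliated markers to 0.35, 2.02 and 2.93. Foxj1, of the ciliated list, had the opposite order to that list's sum, highest in the ATII gate and lowest in keratin-high cells. It was below 0.1 per 10000 in each gate. The part of these markers in the comparisons of gates was not tested. No doublet caller was run.

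The pair of paralogs that separated the gates most clearly was Rps27 and Rps27l, both of the small subunit. Rps27l lies at chr9:66946086-66949516 on the plus strand and Rps27 at chr3:90212522-90213651 on the minus strand (mm10). Their coding sequences, from GENCODE transcripts of that build, are shown so that the divergence that lets reads be told apart can be seen, with the 61 of 255 bases that differ in capitals.
Rps27: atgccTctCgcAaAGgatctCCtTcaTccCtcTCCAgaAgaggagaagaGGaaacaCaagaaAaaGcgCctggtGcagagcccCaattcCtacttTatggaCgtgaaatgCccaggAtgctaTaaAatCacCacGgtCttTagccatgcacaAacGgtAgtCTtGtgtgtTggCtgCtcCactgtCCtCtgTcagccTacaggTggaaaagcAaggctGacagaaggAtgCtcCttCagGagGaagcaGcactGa
Rps27l: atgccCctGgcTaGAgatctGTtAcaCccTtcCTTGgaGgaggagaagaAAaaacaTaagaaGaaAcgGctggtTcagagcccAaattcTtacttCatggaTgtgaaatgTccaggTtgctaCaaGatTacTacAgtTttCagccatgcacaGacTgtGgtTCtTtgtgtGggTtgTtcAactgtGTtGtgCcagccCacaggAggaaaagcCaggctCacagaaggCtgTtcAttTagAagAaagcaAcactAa
The coding sequences were 76.1% identical. Of the 54 codons that differed, 3 coded for another residue, so nearly the same protein is encoded by messages that differ at many bases.

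RefSeq promoter windows (GRCm38.p6) were on hand for 63 of the 83 members. A C followed by at least 4 pyrimidines (C or T), read on the sense strand and beginning within 10 bases of the annotated start, stood in 41 of 75 member windows (54.7%) against 30.7% of all 32851 windows. The annotated start can be off by some bases, so the count describes letters and not tracts in use. For the paralogs, and for 3 other members at the extremes of the comparisons below, 30 bases centred on the start are given, 15 before it and 15 from it, with each such run in capitals, from its first C within those 10 bases.
Rps27: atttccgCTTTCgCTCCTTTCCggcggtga
Rps27l: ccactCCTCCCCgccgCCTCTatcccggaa
Rpl22l1: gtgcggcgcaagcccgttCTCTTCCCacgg
Rpl7l1: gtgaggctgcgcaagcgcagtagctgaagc
Rpl10: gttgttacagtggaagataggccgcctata
Rps2: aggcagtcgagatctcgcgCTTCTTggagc
Rps9: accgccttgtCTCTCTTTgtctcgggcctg
These windows lie at chr3:90213634-90213663 (minus), chr9:66946071-66946100 (plus), chr3:28805493-28805522 (plus), chr17:46782642-46782671 (minus), chrX:74270801-74270830 (plus), chr17:24720048-24720077 (plus) and chr7:3704026-3704055 (plus). Rpl7l1 and Rpl10 held no such run in the window, while the other 5 did. A second annotated start of Rps27l held none either.

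Ribosomal protein transcripts were 30665826 of the kept UMIs (11.9%), or 13.5% once Sftpc was left out of the totals. Sftpc, the surfactant protein C message, was 15.5% of UMIs in the ATII gate, 4.81% in the ATI gate and 2.19% in keratin-high cells, and levels are therefore given per 10000 UMIs without it. Of the 83 members, 80 reached 0.1 per 10000. Rpl10l had no UMI, and Rpl3l and Rpl39l, paralogs described mainly in muscle and in testis, stayed below that floor. The other 80 had a lowest level of 0.856 (Rpl7l1) and a median of 15.8, and 66 of them were at 10 or more. Rplp1, Rps19, Rpl13 and Rps24 were among the 5 members with the most UMIs. UMIs count 3-prime ends and are not scaled by length.

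With Sftpc left out of the totals, also of those used to set the gates, ribosomal protein transcripts were highest in the ATII gate. That gate was itself defined by Sftpc. The order turned with Sftpc kept in the totals, where keratin-high cells exceeded ATII cells (log2 ratio 0.10). It also turned in cells under 10000 UMIs, where both other gates exceeded ATII cells. ATI cells also exceeded ATII cells among those with 10 to 20% mitochondrial UMIs (0.03, 27 and 932 cells). The transcripts summed to 1399.2 per 10000 in ATII cells (interval 1398.6 to 1399.8), 1295.9 in keratin-high cells (1294.7 to 1297.2) and 1174.9 in ATI cells (1173.2 to 1176.6). Cells spread far more widely than these intervals: the middle 50% of cells lay between 1071.1 and 1561.9 in the ATII gate, between 883.84 and 1334 in the ATI gate and between 917.78 and 1467.2 in keratin-high cells, so the gates overlapped broadly. The 140 cells in both the ATI and keratin-high gates were at 1080 (1075.7 to 1084.3), below either gate, and cells of no gate were at 1291.5.

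**Figure D1:**
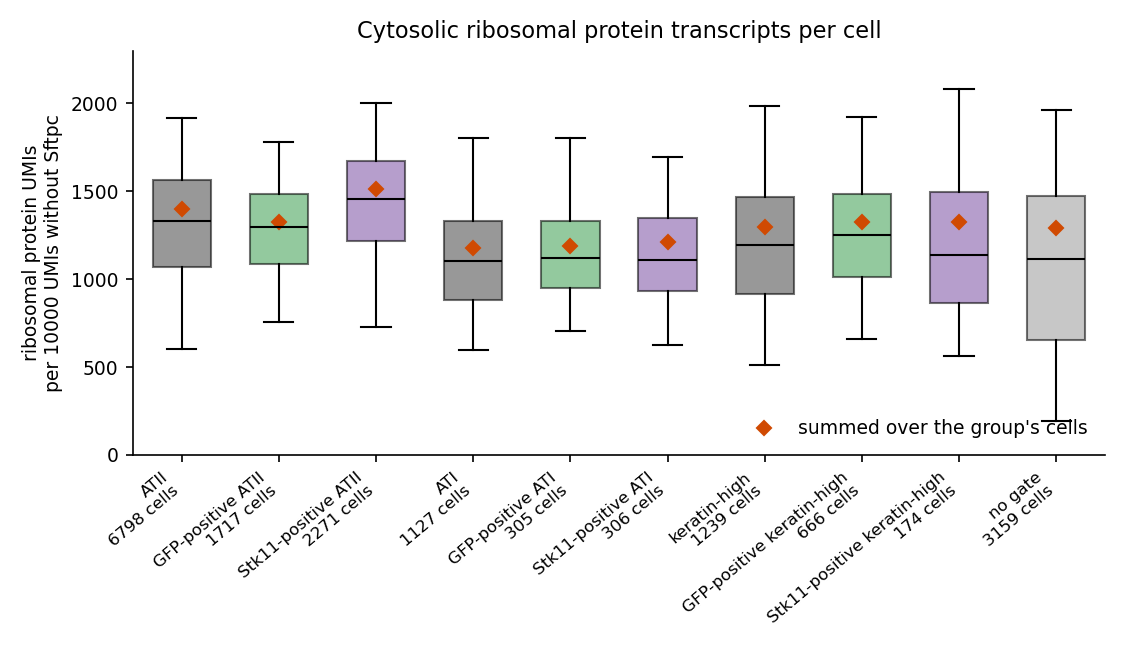
Ribosomal protein UMIs per 10000 UMIs without Sftpc (vertical axis) in each group of cells: boxes span the middle 50% of cells with the median, whiskers the 5th to 95th percentile, and diamonds the level summed over the group. The ATII gate sits highest at 1399.2, and within it Stk11-positive cells are at 1512.1 against 1327.3 in GFP-positive cells, while the diamonds of the pairs in the ATI (1188.4 and 1212.8) and keratin-high gates (1323.4 and 1324.4) lie close together. The keratin-high boxes do not, with medians of 1249.6 in GFP-positive and 1139.8 in Stk11-positive cells.

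The ATI sum was 0.84 times the ATII sum, a log2 ratio of -0.25. With Sftpc kept in totals and gates the ratio was -0.08. The lower level was shared across the family: 74 of 80 members were lower in ATI cells and 6 were higher, with a median of -0.25 and a middle 50% of members between -0.33 and -0.17. Over all 8512 features tested the median was instead 0.20, and 76 of the 80 members lay below it. The small subunit (32 members, median -0.25) and the large subunit (45 members, median -0.24) had nearly the same median, and the 3 stalk genes stood at -0.57 to -0.40.

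Depth moved with this comparison. ATI cells had a median of 12549 UMIs and 2.17% mitochondrial UMIs, ATII cells 21614.5 and 4.32%, and keratin-high cells 23427 and 1.97%. Within the ATII gate the per-cell ribosomal protein level went with UMIs per cell (Spearman's rho 0.47 over 6798 cells that share libraries, a description). In cells with under 5000 UMIs the ATI level was above the ATII level (1093.9 against 911.55, log2 ratio 0.26), and likewise at 5000 to 10000 UMIs (1029.4 against 918.24, 0.16). In the 3 deeper bins it was below it, at -0.16, -0.19 and -0.20. The direction of the ATI sum thus differed between shallow and deep cells, and the part of depth in it was not tested.

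**Figure D2:**
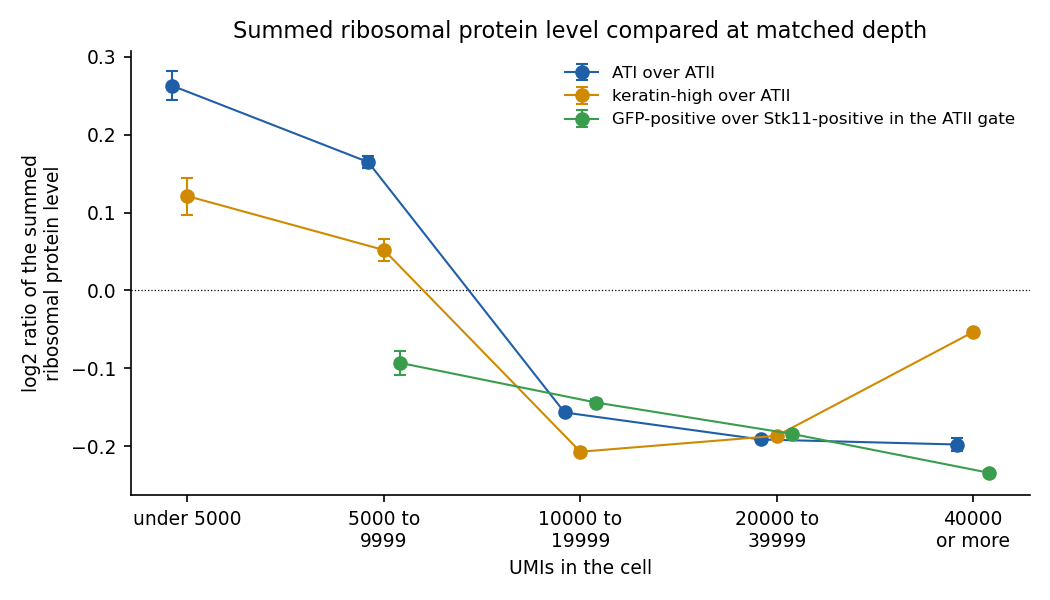
log2 ratio of the summed ribosomal protein level (vertical axis) between groups of cells compared within the same range of UMIs per cell (horizontal axis), with exact 95% counting intervals. ATI over ATII runs from 0.26 in the shallowest cells to -0.20 in the deepest, keratin-high over ATII from 0.12 to -0.05, and GFP-positive over Stk11-positive cells in the ATII gate stays below 0 in each of the 4 bins that held at least 20 cells of both groups.

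To name members that departed from the family, each log2 ratio was set against the member median, and a member was counted when it lay 1.5-fold or more away (0.585 on the log2 scale) with its interval on the same side. In ATI over ATII, 2 members stood above the family by that measure and 0 below. By the same measure of 1.5-fold, 37.2% of all features stood above the member median and 8.25% below it. Measured on the level itself, 1 member was 1.5-fold higher (19.8% of all features) and 2 were 1.5-fold lower (11.7%). Most features have fewer UMIs than the members, so these shares give the background and no measure of uniformity.

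Rps27l was the member farthest above. It was at 4.11 per 10000 in ATII cells, 6.997 in ATI cells and 6.53 in keratin-high cells, a log2 ratio of 0.77 for ATI over ATII (0.74 to 0.80). Its sister Rps27 went the other way, at 12.27, 9.11 and 7.85, a log2 ratio of -0.43 for ATI over ATII and -0.64 for keratin-high over ATII. The Rps27l share of the pair was 25.1% in ATII cells (24.9 to 25.3), 43.5% in ATI cells (42.8 to 44.1) and 45.4% in keratin-high cells (45.0 to 45.9), with cells of no gate between them at 33.3%. Rps27l is known as a target gene of p53.

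Rps27l was higher than in ATII cells at every depth: the log2 ratio for ATI over ATII was 1.49, 1.51, 0.86, 0.72 and 0.53 from the shallowest bin to the deepest, and that for keratin-high over ATII was 0.95, 0.99, 0.76, 0.64 and 0.57. In the 24 keratin-high cells with 10 to 20% mitochondrial UMIs it was instead lower, at -0.40. Rps27 itself is a gene whose count is uncertain, because 98.4% of the 90-base stretches (the read length) in its 3-prime end also occur in transcripts of other genes, among them the retrogene copy Rps27rt, which was in the matrix at 0.880 per 10000 in ATII cells, 0.657 in ATI cells and 0.648 in keratin-high cells. With Rps27rt counted as Rps27, the share of Rps27l was 23.8% in ATII, 41.7% in ATI and 43.5% in keratin-high cells. For Rps27l, 3.2% of such stretches were shared.

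Rpl22l1 was the next member above. Rpl22 and Rpl22l1 are large-subunit paralogs that bind RNA and regulate each other's expression. Rpl22l1 lies at chr3:28805436-28807424 (plus) and Rpl22 at chr4:152325742-152334071 (plus). Rpl22l1 was at 5.36 per 10000 in ATII cells, 7.13 in ATI cells and 7.43 in keratin-high cells (log2 ratios 0.41 and 0.47), while Rpl22 was at 10.94, 8.85 and 9.27 (-0.31 and -0.24). The Rpl22l1 share of the pair was 32.9% in ATII (32.7 to 33.1), 44.6% in ATI (44.0 to 45.2) and 44.5% in keratin-high cells (44.0 to 44.9). In ATI over ATII the Rpl22l1 ratio was above 0 in every depth bin, from 0.79 at 5000 to 10000 UMIs to 0.16 at 40000 or more. In keratin-high over ATII it was -0.04 at 5 to 10% mitochondrial UMIs and 0.06 at 10 to 20%. Of the 2, Rpl22 shared no 90-base stretch with another gene, while 49.6% of those of Rpl22l1 were shared with 1 other annotated gene, which is not a feature of the matrix.

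Rpl7l1, a relative of Rpl7 described in ribosome assembly, had the fewest UMIs of the members above the floor, at 0.826 per 10000 in ATII, 1.01 in ATI and 0.898 in keratin-high cells. Its share with Rpl7 was 4.83%, 6.55% and 5.61%. Rpl36al, which the naming rule left out, had a different order: its share with Rpl36a was 36.4% in ATII, 31.5% in ATI and 34.9% in keratin-high cells, so this pair had its highest paralog share in the ATII gate and Rps27l, Rpl22l1 and Rpl7l1 their lowest. Rpl3l had 43 UMIs in ATII cells and 0 in ATI cells, where 0 allows up to 0.0149% of the pair with Rpl3 (Clopper-Pearson), and Rpl39l had 4 and 0.

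**Figure D3:**
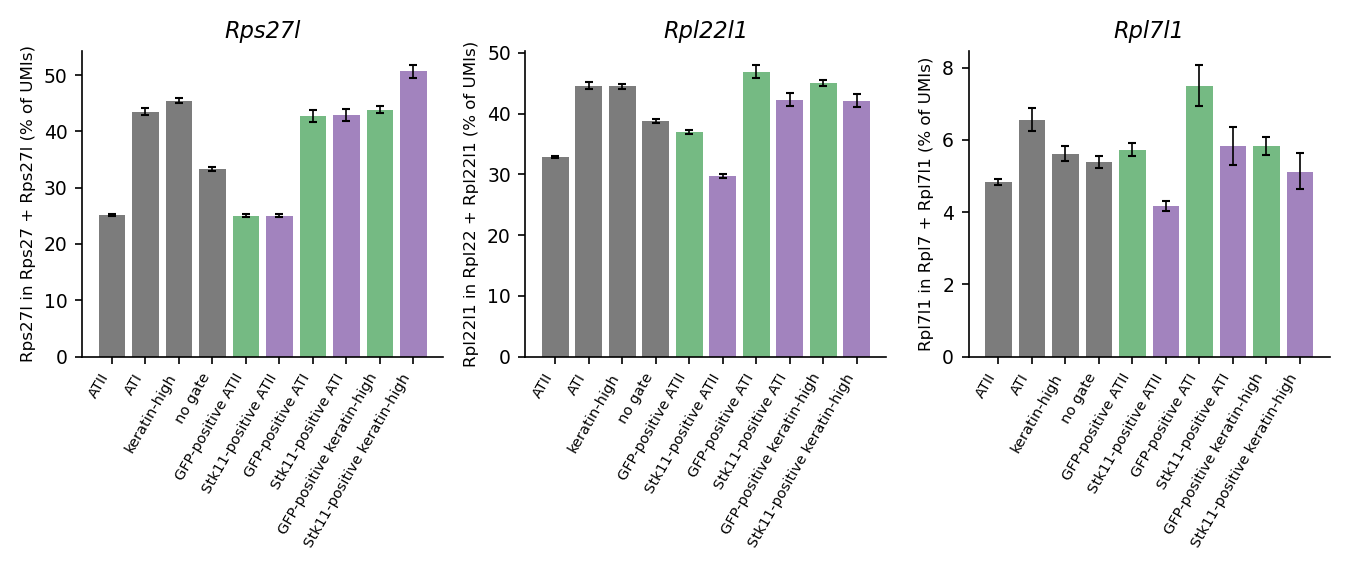
Share of a paralog in the UMIs of its pair (percent, vertical axes from 0) for Rps27l with Rps27, Rpl22l1 with Rpl22 and Rpl7l1 with Rpl7, by group of cells, with exact 95% counting intervals. Rps27l is at 25.1% in ATII, 43.5% in ATI and 45.4% in keratin-high cells, and Rpl22l1 differs between GFP-positive and Stk11-positive ATII cells (37.0% against 29.8%) where Rps27l does not (25.05% and 25.04%).

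Also on the upper side in ATI cells were Rps19, a small-subunit protein needed for ribosomal RNA maturation, at 40.7 against 35.4 per 10000 (log2 ratio 0.20), and Rpl15, at 15.7 against 15.1 (0.05). On the lower side were Rpl10, which helps the large subunit mature, at 17.5 against 28.1 (-0.68), Rps28 at 6.97 against 10.5 (-0.59), Rplp1 at 27.9 against 41.3 (-0.57), Rpl41 at 16.1 against 23.1 (-0.52) and Rpl21 at 22.5 against 32.1 (-0.51). Set against the member median of -0.25, none of these 5 was 1.5-fold below the family. All 411 of the 90-base stretches of Rpl10 were shared with other genes, and with Rpl10-ps3, the copy in the matrix, added to it the log2 ratio was -0.68 as well. Rpl10 was not lower in shallow ATI cells, at 0.05 under 5000 UMIs and 0.16 at 5000 to 10000, and Rpl21 was at 0.09 and -0.015 in the same bins.

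**Figure D4:**
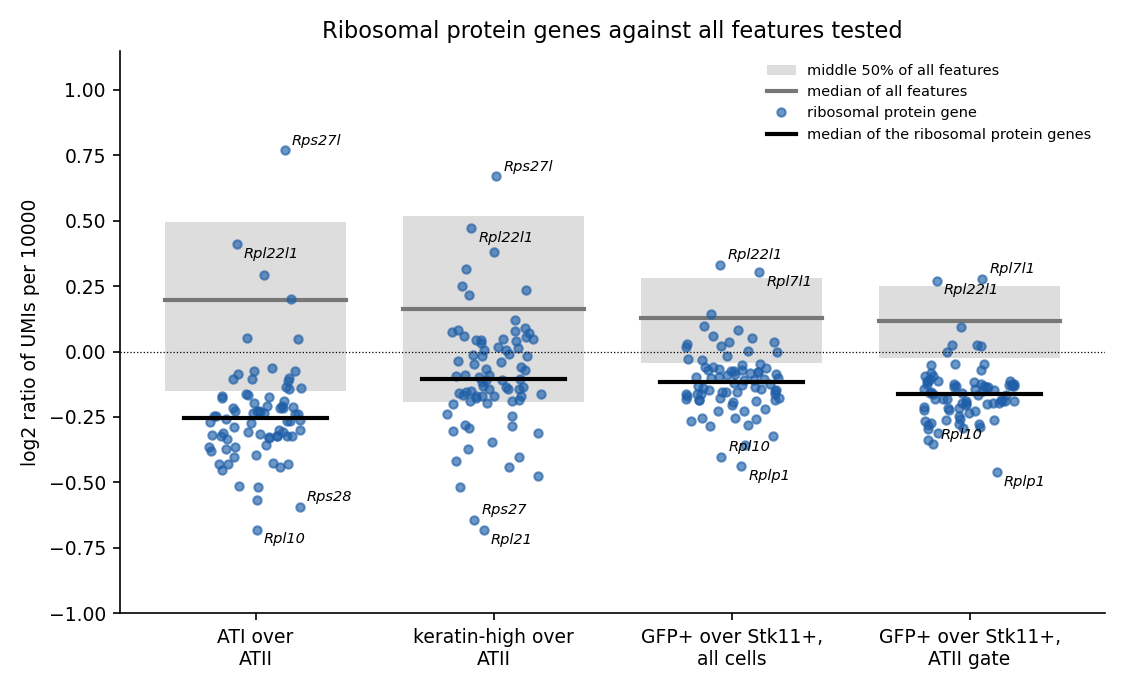
log2 ratio of UMIs per 10000 (vertical axis) for the 80 ribosomal protein genes in 4 comparisons, with their median in black and the median and middle 50% of all features tested in grey. Most members lie below the median of all features, 76 of 80 in the first comparison, with Rps27l at 0.77 and 0.67 and Rpl22l1 at 0.41 and 0.47 standing above it in the first 2 comparisons.

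Keratin-high cells were closer to ATII cells in their sum (log2 ratio -0.11) and more mixed in their members. Of 80 members, 55 were lower and 25 higher than in ATII cells, with a median of -0.11 against 0.16 over 8530 features, and 73 lay below that median. Only Rps27l (0.67, interval 0.65 to 0.69) was 1.5-fold above the member median and 0 members were 1.5-fold below it. By the same measure 26.9% of features were above and 10.2% below. Rpl22l1 (0.577 above the median) and Rpl21 (0.576 below it) stood just short of the 0.585 that was asked. On the level itself 1 member was 1.5-fold higher (21.5% of features) and 2 were lower (12.1%), namely Rpl21 at 20.0 against 32.1 per 10000 (-0.68) and Rps27.

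Others above the family in keratin-high cells were Rps2, at 28.9 against 22.2 per 10000 (0.38), Rpl12, of the stalk base, at 16.1 against 12.9 (0.31), and Rpl15, at 17.98 against 15.1 (0.25). Below it were Rps28 at 7.34 against 10.5 (-0.52), Rps29 at 10.1 against 14.1 (-0.48) and Rpl10 at 20.7 against 28.1 (-0.44). Rpl10, Rps28 and Rpl21 were thus among the 5 lowest in both gates, but both comparisons used the same ATII cells. In keratin-high over ATII, Rpl10 was below 0 in 7 of 9 bins of depth or mitochondrial UMIs, with a highest value of 0.07. Rps28 and Rpl21 were below 0 in 9 of 9. The direction of the keratin-high sum changed with the total: with Sftpc kept in totals and gates it was 0.10 in place of -0.11. By depth it was 0.12 and 0.05 in the 2 shallow bins and -0.21, -0.19 and -0.05 in the deeper ones.

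Among members with many UMIs, Rpl13 was at 30.31 per 10000 in ATII, 28.56 in ATI and 32.28 in keratin-high cells (log2 ratios to ATII -0.09 and 0.09), and Rps24 at 31.29, 25.03 and 28.04 (-0.32 and -0.16). Of the main genes of the other pairs, Rpl10 is given above and Rpl36a was at -0.43 in ATI and -0.31 in keratin-high cells. Rpl3, which forms part of the peptidyl transferase region, was at -0.14 in ATI and 0.004 in keratin-high cells, Rpl7 at -0.17 and -0.11, Rpl39 at -0.24 and -0.04, and Rps4x at -0.17 and -0.02.

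Keratin-high and ATI cells were also set against each other, with the 140 cells of both gates counted on both sides. The sum was higher in keratin-high cells by 0.14 on the log2 scale, with 70 of 80 members above 0 and a median of 0.16 against -0.03 over 8518 features. Rps2 was at 28.9 per 10000 in keratin-high and 18.9 in ATI cells (0.62), Rpl12 at 16.1 and 10.96 (0.55), and Rplp0, the scaffold of the stalk, at 27.1 and 19.95 (0.44). Rps19 went furthest the other way, at 29.04 and 40.7 (-0.49). These genes were chosen after their values were seen. By depth the ratio of the sum was -0.14, -0.11, -0.05, 0.005 and 0.14 from the shallowest bin to the deepest, which held 188 keratin-high and 20 ATI cells, so the direction was not kept at matched depth.

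GFP-positive and Stk11-positive cells were compared next, since GFP marks the trapped Lkb1 allele and Stk11 its intact message. Over all kept cells, 3360 GFP-positive cells were at 1327.2 per 10000 and 3367 Stk11-positive cells at 1461.4 (log2 ratio -0.14), 29 cells had both and 5427 had neither. The median member was at -0.11, with 67 of 80 below 0 and 77 below the median of all features (0.13). No member was 1.5-fold from the member median (0 above and 0 below), where 10.1% and 2.83% of features were. These groups differed in what cells they held, with 1717 of the GFP-positive and 2271 of the Stk11-positive cells in the ATII gate. Fibroblast markers summed to 0.256 per 10000 in GFP-positive and 9.99 in Stk11-positive cells (5 of 5 detected in both). Club cell markers summed to 0.495 and 14.1 (3 of 3 in both). ATII markers other than Sftpc summed to 415.21 and 706.8, and ATI markers to 45.3 and 31.2. Keratin-high markers summed to 50.4 and 21.0, and proliferation markers to 2.06 and 0.632. Their part in the result was not tested in this comparison, and the log2 ratio without cells carrying fibroblast, endothelial or immune markers was -0.15. With Sftpc kept in totals and gates it was -0.05, and in cells under 5000 UMIs it was 0.27.

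Within the ATII gate the median cell had 25366 UMIs among GFP-positive and 25102 among Stk11-positive cells, and the difference was present in nearly the whole family. The 1717 GFP-positive cells were at 1327.3 per 10000 (1326.2 to 1328.5) and the 2271 Stk11-positive cells at 1512.1 (1511.0 to 1513.1), a log2 ratio of -0.19. The middle 50% of cells was 1086.5 to 1487.4 and 1220.2 to 1672.7, overlapping. Of 80 members, 74 were lower in GFP-positive cells, with a median of -0.16, and 78 lay below the median of all 8124 features (0.12). In the depth bins from 5000 UMIs upward the ratio of the sum was -0.09, -0.14, -0.18 and -0.23. ATII markers other than Sftpc summed to 645.23 per 10000 in GFP-positive and 871.67 in Stk11-positive ATII cells. Proliferation markers summed to 2.498 and 0.592, keratin-high markers to 24.5 and 11.6, and ATI markers to 28.9 and 20.6. Sftpd (63.5 against 52.4), Lamp3 (9.48 against 9.21) and Napsa (31.4 against 30.3) were higher in GFP-positive cells, unlike the other ATII markers. Clic5 and Igfbp2 were lower, unlike the other ATI markers, as was Tnip3, unlike the other keratin-high markers. Fibroblast markers summed to 0.201 and 0.715, club markers to 0.701 and 1.52, and ciliated markers to 0.528 and 0.181. Their part in the result was not tested. Without cycling cells the ratio was again -0.19.

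No member was 1.5-fold from the member median in this comparison (0 above, 0 below, against 9.44% and 1.38% of all features), and none was 1.5-fold higher or lower in its own level (5.03% and 2.02% of features). The members farthest down were Rplp1, at 34.6 in GFP-positive and 47.7 per 10000 in Stk11-positive ATII cells (-0.46), Rpl10, at 25.3 and 32.3 (-0.35), Rps9, at 24.7 and 31.3 (-0.34), Rps12, at 22.6 and 28.0 (-0.31), and Rps19, at 31.7 and 39.0 (-0.30). On the upper side Rpl7l1 was at 0.932 and 0.768 (0.28, interval 0.21 to 0.34) and Rpl22l1 at 6.04 and 5.01 (0.27, 0.25 to 0.30), while Rpl27 (0.09), Rps26 (0.02) and Rpl29 (0.02) were nearly level.

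**Figure D5:**
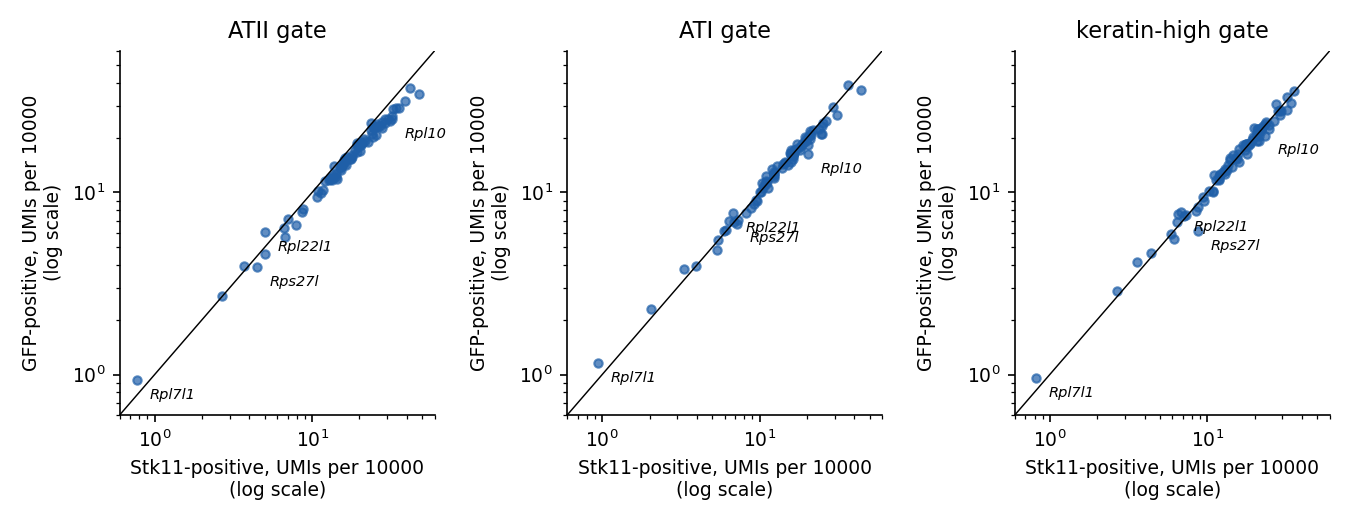
Level of each of the 80 members (UMIs per 10000, log scales) in GFP-positive cells (vertical) against Stk11-positive cells (horizontal) of each gate, with the line of equal level. In the ATII gate 74 of 80 points fall below the line and they lie on both sides of it in the ATI and keratin-high gates, with Rpl22l1 and Rpl7l1 above the line in all 3.

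The paralog pairs behaved differently in these groups. Rpl22l1 had 37.0% of its pair in GFP-positive ATII cells (36.6 to 37.4) and 29.8% in Stk11-positive ones (29.5 to 30.1), and the same order held in the ATI gate (46.9% and 42.3%) and in keratin-high cells (45.1% and 42.1%). Its own level was higher in GFP-positive cells in the 4 depth bins compared in the ATII gate, those from 5000 UMIs upward, with log2 ratios of 0.20, 0.24, 0.33 and 0.17. Rpl36al, no member, also had a higher share in GFP-positive ATII cells (39.2% against 34.3%). Its own level differed little there (4.26 against 4.11 per 10000), while Rpl36a was lower (6.62 against 7.86). The Rps27l share was 25.05% in GFP-positive and 25.04% in Stk11-positive ATII cells and 42.8% and 42.9% in ATI cells. In keratin-high cells it was 43.9% in GFP-positive cells (43.3 to 44.4) and 50.6% in the 174 Stk11-positive ones (49.6 to 51.7), where Rps27l was at 6.14 and 8.74 per 10000 (-0.51, -0.56 to -0.46). The Rps27l ratio there was -0.69, -0.46 and -0.51 in the 3 depth bins that could be filled.

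Outside the ATII gate the sums were close, though the median keratin-high cell was higher among GFP-positive (1249.6) than among Stk11-positive cells (1139.8). GFP-positive and Stk11-positive cells were at 1188.4 and 1212.8 per 10000 in the ATI gate (-0.03) and at 1323.4 and 1324.4 in the keratin-high gate (-0.001, interval -0.005 to 0.003). The depth bins of the ATI gate gave 0.06, 0.08 and -0.12, and those of the keratin-high gate 0.20, -0.07 and -0.04, so neither gate kept one direction. Whether the difference in the ATII gate departs from those in the other gates was not tested. Cycling cells, those with at least 3 UMIs over the proliferation markers, were at 1382.6 per 10000 (362 cells) and the other 11821 at 1347.3, with medians of 34210 and 18999 UMIs per cell, so cycling and depth moved together.

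Members also varied together from cell to cell. In 6592 ATII cells with at least 5000 UMIs, Spearman's rho of a member's level with the sum of the other members had a median of 0.74 over the 79 members at 2 or more per 10000. These cells share libraries and the rho includes depth. The lowest values were those of Rpl22l1 (0.25) and Rps27l (0.37), and 7 other members at 2 to 8 per 10000 were at 0.39 to 0.63, so Rpl22l1 was the most loosely tied among members of like level and Rps27l lay next to the lowest of these. Across cells of the ATII gate the sum also went with the mitochondrial share of UMIs (rho -0.50).

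Genes outside the family were taken from lists. Of 19 translation factors and other genes known for terminal oligopyrimidine tracts, 1 of 19 tested was 1.5-fold lower (11.7% of all features) and 0 higher (19.8%) in ATI over ATII, with a median of -0.05. That gene was Tpt1, at 45.3 against 80.5 per 10000 (-0.83), and it was also the lowest of the list in keratin-high cells (-0.57, median of the list 0.19, 0 called) and in GFP-positive ATII cells (66.4 against 93.96, -0.50, median -0.10, 0 called). Of all features, 21.5% were higher and 12.1% lower in the former and 5.03% and 2.02% in the latter. The medians of the ribosomal protein genes in these comparisons were -0.25, -0.11 and -0.16.

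Genes of ribosome assembly were mostly higher in keratin-high than in ATII cells. Of 25 tested, 15 were 1.5-fold higher (21.5% of all features) and 1 lower (12.1%), with a median of 0.63. Nhp2, of the pseudouridine-guiding particles, was at 1.51 against 0.734 per 10000 (1.04), Eif6, which keeps the subunits apart, at 1.87 against 0.909 (1.04), and Gar1 at 0.416 against 0.210 (0.99), while Heatr1 was at 0.125 against 0.297 (-1.25). In ATI over ATII, 2 of 26 were higher (Dkc1 at 0.77, and Nle1 at 0.103 against 0.0637 per 10000) and 1 lower (Heatr1, 0.097 against 0.297), no larger a share than the 19.8% and 11.7% of all features. Nle1 and Heatr1 reached the floor of 0.1 in the higher group alone, so their calls follow in part from the filter, and the list had a median of 0.26. In GFP-positive over Stk11-positive ATII cells 0 of 25 were called (5.03% of all features higher and 2.02% lower), with a median of 0.23 and Nob1, an endonuclease of small-subunit maturation, highest at 0.44. Each median is to be read beside those of all features, 0.16, 0.20 and 0.12.

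Among 12 regulators of ribosomal protein synthesis, 3 of 12 tested were 1.5-fold higher in keratin-high cells and 0 lower (median 0.08), near the 21.5% of all features that were higher. Myc, which drives ribosome gene transcription, was at 0.267 against 0.0666 per 10000, Mycn at 0.143 against 0.0545 and Rheb, the activator of mTOR complex 1, at 2.38 against 1.31 (0.86). In ATI cells Mycn was at 0.254 and Rheb at 2.04 (0.64). Myc and Mycn reached the floor of 0.1 only in the group where they were higher, so their calls follow in part from the filter. In ATI cells Eif4ebp1, the translation repressor under mTOR control, was lower at 0.426 against 0.818 (-0.94). The median was 0.08 over 11, 2 higher and 1 lower, with the same 19.8% and 11.7% of all features beside these counts. In GFP-positive over Stk11-positive ATII cells 0 of 10 were called (5.03% and 2.02% of all features), Eif4ebp1 was at 0.693 against 0.978 (-0.50), and the median was 0.15. Mitochondrial ribosomal proteins, 75 of 78 tested, had medians of 0.11, 0.17 and 0.10 in the 3 comparisons, close to the median of all features and not to the cytosolic members. In keratin-high cells 7 of 75 were higher and 1 lower, smaller shares than the 21.5% and 12.1% of all features, with Mrps6 at 1.02 against 0.367 (1.48) farthest up.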

How the data were processed

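Sorted neoplastic cells of 6 mice were sequenced by the authors, aligned to mm10 and turned into UMI counts per gene and cell with Cell Ranger 3.0.2. The deposited values are these whole counts, not normalized, in 1 matrix of all mice; cell barcodes were not used here, so those shared between libraries were not counted. The annotation release is not given in the sources used here. The members and lists were chosen with earlier results of these data known. Cells with at least 500 genes and at most 20% mitochondrial UMIs were kept, groups were set by the transcript gates, counts were summed over each group and divided by its UMIs without Sftpc. Levels have exact Poisson, ratios exact conditional binomial and shares Clopper-Pearson 95% intervals (scipy 1.17.1), which cover counting error only. Features at 0.1 per 10000 in either group were compared with the fold of 1.5. The ratio and its call were tested on simulated data. Named members were the 5 farthest above and below the member median in ATI over ATII, keratin-high over ATII and GFP-positive over Stk11-positive cells of the ATII gate, the 5 with the most UMIs, and the paralog pairs. A named member and an allele shared by all mice are not reported here. Of other lists, up to 4 genes at the extremes were named. GENCODE M21 gave coordinates of all 83 members; Rpl13 and Rpl13a overlap another feature on their strand. Of 83 members, 18 shared a 90-base stretch of their last 500 bases with a gene of the matrix, and 23 with no other gene. Depth bins, mitochondrial bins and the shift by the median of all features were chosen after seeing the data.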

Additional observations from a re-analysis of the deposited data

How the results depend on the processing

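The log2 ratio of the summed level moved by more than its counting interval under most alternatives, and the causes were not tested. With Sftpc kept, it was -0.0813 for ATI over ATII, 0.102 for keratin-high over ATII, -0.0504 for GFP-positive over Stk11-positive cells and -0.130 for the same within the ATII gate. With mitochondrial, surfactant, lysozyme and keratin genes also left out of totals, it was -0.366 for ATI over ATII, -0.217 for keratin-high over ATII, -0.187 for GFP-positive over Stk11-positive cells and -0.226 for the same within the ATII gate. At most 10% mitochondrial UMIs, it was -0.281 for ATI over ATII, -0.140 for keratin-high over ATII, -0.151 for GFP-positive over Stk11-positive cells and -0.204 for the same within the ATII gate. In cells of at least 5000 UMIs, it was -0.140 for GFP-positive over Stk11-positive cells. With cells weighted equally, it was -0.199 for ATI over ATII, -0.122 for GFP-positive over Stk11-positive cells and -0.159 for the same within the ATII gate. With gates on cells thinned to 5000 UMIs, it was -0.245 for ATI over ATII, -0.121 for GFP-positive over Stk11-positive cells and -0.161 for the same within the ATII gate. Without the 2% of cells with the most UMIs, it was -0.249 for ATI over ATII, -0.131 for keratin-high over ATII, -0.147 for GFP-positive over Stk11-positive cells and -0.179 for the same within the ATII gate. Without cycling cells, it was -0.131 for keratin-high over ATII, -0.149 for GFP-positive over Stk11-positive cells and -0.190 for the same within the ATII gate. Without cells with other cell types' markers, it was -0.118 for keratin-high over ATII, -0.152 for GFP-positive over Stk11-positive cells and -0.185 for the same within the ATII gate. Without cells in both gates, it was -0.232 for ATI over ATII and -0.0919 for keratin-high over ATII. With at least 2 UMIs of GFP or Stk11, it was -0.154 for GFP-positive over Stk11-positive cells and -0.191 for the same within the ATII gate. With cells that have both in both groups, it was -0.137 for GFP-positive over Stk11-positive cells and -0.186 for the same within the ATII gate. The following were chosen after seeing the data. Under 5000 UMIs, it was 0.263 for ATI over ATII, 0.121 for keratin-high over ATII and 0.269 for GFP-positive over Stk11-positive cells. At 5000 to 10000, it was 0.165 for ATI over ATII, 0.0519 for keratin-high over ATII, -0.0462 for GFP-positive over Stk11-positive cells and -0.0931 for the same within the ATII gate. At 10000 to 20000, it was -0.157 for ATI over ATII, -0.207 for keratin-high over ATII, -0.111 for GFP-positive over Stk11-positive cells and -0.144 for the same within the ATII gate. At 20000 to 40000, it was -0.192 for ATI over ATII, -0.187 for keratin-high over ATII, -0.168 for GFP-positive over Stk11-positive cells and -0.184 for the same within the ATII gate. At 40000 or more, it was -0.198 for ATI over ATII, -0.0535 for keratin-high over ATII, -0.146 for GFP-positive over Stk11-positive cells and -0.234 for the same within the ATII gate. Under 2.5% mitochondrial UMIs, it was -0.363 for ATI over ATII, -0.206 for keratin-high over ATII, -0.0951 for GFP-positive over Stk11-positive cells and -0.206 for the same within the ATII gate. At 2.5 to 5%, it was -0.240 for ATI over ATII, -0.121 for keratin-high over ATII, -0.180 for GFP-positive over Stk11-positive cells and -0.215 for the same within the ATII gate. At 5 to 10%, it was -0.352 for ATI over ATII, -0.227 for keratin-high over ATII, -0.157 for GFP-positive over Stk11-positive cells and -0.191 for the same within the ATII gate. At 10 to 20%, it was 0.0284 for ATI over ATII, -0.523 for keratin-high over ATII, -0.116 for GFP-positive over Stk11-positive cells and -0.0585 for the same within the ATII gate. Relative to the median of all features, it was -0.449 for ATI over ATII, -0.273 for keratin-high over ATII, -0.269 for GFP-positive over Stk11-positive cells and -0.306 for the same within the ATII gate. Rpl10 in ATI over ATII was 0.0501 under 5000 UMIs and 0.158 at 5000 to 10000, and Rps27l in keratin-high over ATII was -0.401 at 10 to 20% mitochondrial UMIs. Members past the fold numbered 1 at 2-fold in ATI over ATII. In keratin-high over ATII they numbered 2 with Sftpc kept, with cells weighted equally, without cycling cells and without cells in both gates, 0 at 2-fold, and 3 for the log2 ratio itself. In all GFP-positive over Stk11-positive cells 1 was past it with no minimum level.

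No paired analysis was possible because no file used here maps cells to mice, and for the same reason leaving out each mouse in turn was not run. Counting error was small at this depth, so the spread between mice, which is not known here, limits every comparison.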
